A study of Rattus norvegicus with 24 samples.

Results

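Of 5327 age-related differentially methylated regions listed by the authors in rat sperm, 811 were listed at a gene body and had a low but measurable methylation level in young control animals. They were chosen by 3 criteria: a span of at most 10000 bp, a listed distance to the gene of 0, and a level of at least 2% and below 10% in control sperm at postnatal day (PND) 65. The sperm came from the distal cauda epididymis of 24 male Wistar rats in 4 groups of 6. Control dams received tocopherol stripped corn oil by mouth each day from pregnancy day 8 to PND21. Exposed dams received BDE-47, a brominated diphenyl ether flame retardant, in this oil at 0.2 mg/kg body weight per day. Their sons were killed at PND65 or PND120, giving the groups control PND65, control PND120, BDE-47 PND65 and BDE-47 PND120. Each litter gave 1 male per age, and rats of the PND65 and PND120 groups of an arm may therefore be brothers. Motile sperm were collected by swim-up and passed through a density gradient against somatic cells, and their purity could not be checked from a list of differing regions.

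DNA methylation in mammals is mostly found at CpGs, cytosines followed by guanine. In mature sperm most of the genome is highly methylated, whereas CpG-rich promoters and many gene starts are almost free of methylation. Reduced representation bisulfite sequencing cuts DNA at CCGG and so reads mainly CpG-rich stretches, and bisulfite treatment tells methylated from unmethylated cytosines. Every level given here is the authors' value for a group of 6 animals, in percent. No values of single animals were used, so no spread between animals and no test of any difference can be given. Listed regions had a q-value under 0.05 and at least 3 CpGs with at least 10 reads each, per the file headers, and the depth of the libraries is unknown. Which arm's q-value put a region on the list is not given. Where levels are given in pairs, PND65 comes first and PND120 second.

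The 811 regions lay in 771 genes and were mostly short. They had a median of 4 CpGs (quartiles 3 and 6) and a median length of 141 bp. At most 1000 bp were spanned by 711 regions, 300 held exactly 3 CpGs, and 50 held at least 10. Chromosome 1 carried 99, chromosome 18 carried 14 and chromosome X carried 4. A listed distance of 0 means that a region overlaps its gene, and it may reach past the gene's ends. The files place a region in a gene body of build rn6 without naming an exon, intron or UTR, and their counting base for starts is not given.

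MicroRNA genes were among the hosts, and the hairpins of 2 of them are shown because the regions listed there lie at a very short gene. They were picked after their values were seen. The sequences are from RefSeq on assembly GRCr8, with CpGs in capitals.
Mir210 hairpin: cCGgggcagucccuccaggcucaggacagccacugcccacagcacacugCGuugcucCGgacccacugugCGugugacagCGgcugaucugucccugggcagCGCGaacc
Mir219a1 hairpin, listed as Mir219-1: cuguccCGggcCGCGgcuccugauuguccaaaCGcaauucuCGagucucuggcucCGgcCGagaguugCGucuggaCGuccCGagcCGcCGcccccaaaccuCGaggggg
The Mir210 hairpin of 110 bases holds 7 CpGs, and that of Mir219a1, also 110 bases, holds 13. Which of them were measured is not known, and the listed region of Mir210 is longer than the hairpin. MicroRNAs pair with target transcripts through the seed, bases 2 to 8 of the mature strand, which is in capitals in these mature sequences.
rno-miR-210-3p: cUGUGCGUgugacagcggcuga
rno-miR-210-5p: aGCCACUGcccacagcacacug
rno-miR-219a-1-3p: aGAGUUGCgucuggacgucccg
No seed was shared between these strands. A 5p strand of Mir219a1 was not among the sequences used, so its seed is not shown or compared.

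The region at Mir210, a hypoxia-responsive microRNA, held 5 CpGs (rn6 chr1:214208405-214208682) and had 2.71% and 15.5% in controls and 10.4% and 10.3% in BDE-47 animals. At Mir219-1, known from oligodendrocyte differentiation, 3 CpGs (rn6 chr20:3816233-3816303) had 3.10% and 11.8% in controls and 8.02% and 8.62% in BDE-47 animals. At Mir6326, 12 CpGs over 5975 bp (rn6 chr10:62297839-62303814) had 3.96% and 11.8% in controls and 11.1% and 10.7% in BDE-47 animals. The Mir6326 hairpin in RefSeq has 111 bases and 0 CpGs, so that region reaches far beyond it. In all 3, both BDE-47 levels lay between the control levels. The neuronal Mir124-3 differed from them. Its 5 CpGs had 6.97% and 12.9% in controls but 6.49% and 6.58% in BDE-47 animals, below both control levels.

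Promoters of 6 host genes are shown so that the CpG content at their starts can be read directly. They belong to the regions with the most CpGs (Rtn2, Cyp26c1), the largest control differences (Cox5a, Reep1) and the highest BDE-47 levels relative to controls at PND65 (Ube2g1, Hint2), among genes with 1 RefSeq promoter. Each runs from 250 bases before to 50 bases after the start of the gene, on the gene's strand, with CpGs in capitals. Because these coordinates are of GRCr8 and the regions are of rn6, whether a region falls in its promoter is not known.
Rtn2, GRCr8 chr1:88063042-88063341, plus strand: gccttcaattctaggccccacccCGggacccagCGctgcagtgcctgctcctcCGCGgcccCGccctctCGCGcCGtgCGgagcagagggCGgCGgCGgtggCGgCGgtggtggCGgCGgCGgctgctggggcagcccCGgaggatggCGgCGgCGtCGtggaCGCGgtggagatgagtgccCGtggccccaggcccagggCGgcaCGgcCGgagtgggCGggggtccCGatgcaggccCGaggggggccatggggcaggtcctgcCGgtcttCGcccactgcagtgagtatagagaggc
Cyp26c1, GRCr8 chr1:244870162-244870461, plus strand: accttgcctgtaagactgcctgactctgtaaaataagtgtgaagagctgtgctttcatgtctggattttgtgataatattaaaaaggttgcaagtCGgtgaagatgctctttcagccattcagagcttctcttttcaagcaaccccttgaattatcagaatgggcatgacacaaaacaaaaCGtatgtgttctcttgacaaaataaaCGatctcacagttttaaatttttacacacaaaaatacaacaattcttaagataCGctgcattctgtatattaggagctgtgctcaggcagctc
Cox5a, GRCr8 chr8:66818034-66818333, plus strand: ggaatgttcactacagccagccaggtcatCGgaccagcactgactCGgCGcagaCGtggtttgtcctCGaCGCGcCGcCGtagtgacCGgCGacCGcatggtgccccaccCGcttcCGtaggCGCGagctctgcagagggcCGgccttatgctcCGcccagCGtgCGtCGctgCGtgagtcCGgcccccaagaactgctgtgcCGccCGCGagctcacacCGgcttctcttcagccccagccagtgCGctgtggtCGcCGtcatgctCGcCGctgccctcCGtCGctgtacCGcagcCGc
Reep1, GRCr8 chr4:105304132-105304431, plus strand: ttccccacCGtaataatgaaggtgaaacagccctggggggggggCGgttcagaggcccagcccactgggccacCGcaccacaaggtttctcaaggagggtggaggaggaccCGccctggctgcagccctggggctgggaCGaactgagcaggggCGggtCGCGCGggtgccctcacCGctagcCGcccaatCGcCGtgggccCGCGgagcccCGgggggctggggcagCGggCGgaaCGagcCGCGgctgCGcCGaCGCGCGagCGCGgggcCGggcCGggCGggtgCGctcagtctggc
Ube2g1, GRCr8 chr10:57724258-57724557, plus strand: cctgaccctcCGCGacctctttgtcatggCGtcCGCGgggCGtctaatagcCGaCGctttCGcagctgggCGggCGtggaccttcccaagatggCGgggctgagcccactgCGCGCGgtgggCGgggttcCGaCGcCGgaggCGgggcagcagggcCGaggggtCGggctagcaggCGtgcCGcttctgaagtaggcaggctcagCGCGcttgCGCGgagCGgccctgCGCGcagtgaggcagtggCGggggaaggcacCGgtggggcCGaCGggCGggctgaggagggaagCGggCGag
Hint2, GRCr8 chr5:62702589-62702888, minus strand: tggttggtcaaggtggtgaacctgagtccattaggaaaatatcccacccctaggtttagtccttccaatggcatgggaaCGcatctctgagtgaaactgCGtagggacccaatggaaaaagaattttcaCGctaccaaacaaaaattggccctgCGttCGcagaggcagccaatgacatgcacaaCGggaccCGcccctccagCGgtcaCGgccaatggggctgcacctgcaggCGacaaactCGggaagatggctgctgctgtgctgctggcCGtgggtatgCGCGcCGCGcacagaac
The promoters of Rtn2, Cox5a, Reep1 and Ube2g1 hold 33, 36, 32 and 38 CpGs. Those of Cyp26c1 and Hint2 hold 4 and 16, and neither has a CCGG, the palindrome cut by the enzyme. The other promoters have CCGG between 2 and 4 times.

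Of the 771 host genes, 705 matched a current RefSeq symbol and 24 an older one, and 559 had exactly 1 promoter entry. These 559 promoters had a median of 24 CpGs in 300 bases, and 88.9% held a CCGG. Over all 24206 such promoters the median was 8 CpGs, and 53.9% held a CCGG. Hosts of listed gene-body regions under 2% had a median of 24 CpGs, and hosts of those of at least 10% had 23. Host genes with 1 promoter entry thus had CpG-rich starts in all 3 classes of starting level. The assay reads mainly CpG-rich stretches near CCGG, and no set of all genes it covered was compared. The difference from all promoters therefore cannot be read as a trait of the listed regions.

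In control sperm all 811 regions had a higher level at PND120 than at PND65. The median over regions was 4.90% at PND65 (quartiles 3.53 and 6.75) and 14.6% at PND120 (12.4 and 16.7). The control difference ran from 5.11 to 20.9 percentage points with a median of 9.18. All 811 differed by at least 5 points in this direction, as did 99.1% of all listed regions, while no region was lower by 5 points, against 0.676% of all listed regions. A difference of at least 10 points was found in 313 regions (38.6%), against 41.0% of all listed regions. A low PND65 control level chose the regions and the listing rested on age differences, so nothing is read from the direction in controls.

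**Figure D1:**
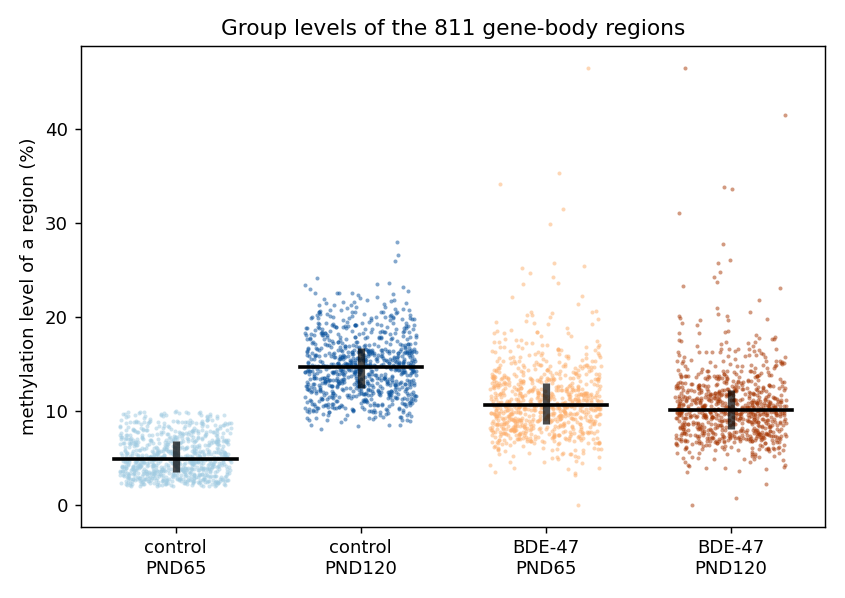
Methylation level (vertical axis, %) of the 811 regions in each of the 4 groups, with the median and quartiles over regions. The BDE-47 medians of 10.6% and 10.1% stand between the control medians of 4.90% and 14.6%, and a few BDE-47 levels exceed 30%.

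In BDE-47 animals the levels were nearly the same at both ages. The median over regions was 10.6% at PND65 (quartiles 8.61 and 13.0) and 10.1% at PND120 (8.04 and 12.2). The age difference had a median of -0.477 points, was under 1 point in size in 534 regions (65.8%, against 63.3% of all listed regions) and under 2 points in 742 (91.5%, against 86.6%). It was negative in 586 regions (72.3%, against 66.9%) and positive in 224 (27.6%, against 32.8%). A BDE-47 gain of at least 5 points was found in 2 regions (0.247%), against 2.57% of all listed regions. A loss of that size was found in 2, against 0.976% of all listed regions. Nearly all listed regions (99.1%) gained at least 5 points in controls, so the list is largely one of control differences. Whether such a list favours small BDE-47 differences and BDE-47 levels between those of controls was not tested. Nothing about exposure and age is read from them. Averaged over both ages, the BDE-47 level was a median of 0.738 points above the control level, and it was within 2 points of it in 543 regions (67.0%). The share over all listed regions was not computed, and the control mean holds the PND65 value that chose the regions, so nothing is read from this.

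Set against controls of the same age, BDE-47 sperm had higher levels at PND65 and lower levels at PND120. At PND65 the BDE-47 level was higher in 790 regions (97.4%, against 93.7% of all listed regions), and the difference had a median of 5.56 points over all 811. It was at least 5 points higher in 464 (57.2%), against 59.9% of all listed regions, and at least 5 points lower in 1, against 2.33%. At PND120 it was lower in 760 regions (93.7%, against 90.2%), and the median was -4.27 points. It was at least 5 points lower in 304 (37.5%), against 34.0% of all listed regions, and at least 5 points higher in 19, against 4.19%. The shares at least 5 points higher at PND65 and lower at PND120 were near those of the whole list. These comparisons use the same control values as the age difference in controls, and the PND65 control value also chose the regions.

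A single order of the 4 groups held 529 regions (65.2%): control PND65 lowest, then BDE-47 PND120, BDE-47 PND65, and control PND120 highest. A further 191 (23.6%) had the BDE-47 ages exchanged. Both BDE-47 levels therefore lay between the control levels in 720 regions (88.8%), against 82.1% of all listed regions. BDE-47 sperm was above both control levels at both ages in 48 regions (5.92%, against 7.98% of all listed regions) and below both in 16 (1.97%, against 4.67%).

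**Figure D2:**
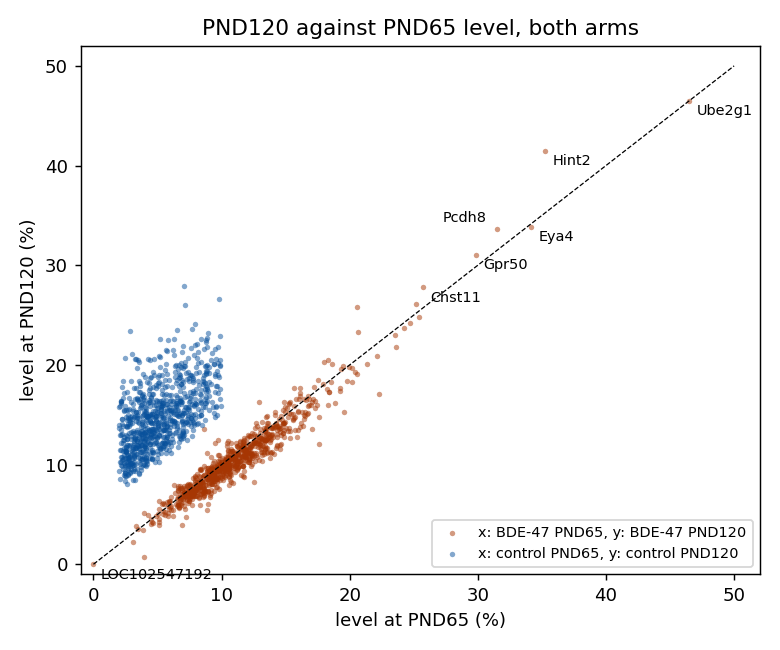
Level at PND120 (vertical axis, %) against level at PND65 (horizontal axis, %) of the 811 regions in controls and in BDE-47 animals, with the line of equal levels. Control points lie above the line and between 2% and 10% at PND65, as chosen, while BDE-47 points follow the line up to 46.5%.

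Regions kept much the same rank at both ages in BDE-47 sperm. Across the 811 regions Spearman's rho between PND65 and PND120 levels was 0.948 in BDE-47 animals (Pearson's r 0.964) and 0.568 in controls (r 0.572). These are descriptions across regions that share animals and libraries, and the narrow window of PND65 control levels limits the control value by construction.

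Adjacent classes of gene-body regions differ by definition in the PND65 control level. The 2257 regions under 2% had medians of 0.481% and 10.1% in controls and 6.27% and 5.83% in BDE-47 animals. The 341 regions of at least 10% had medians of 18.3% and 27.4% in controls and 24.5% and 24.4% in BDE-47 animals. The median control difference was 9.57 points in the lower class, 9.18 in the 811 regions and 8.62 in the upper class. Both BDE-47 levels lay between the control levels in 93.4%, 88.8% and 58.9% of regions in the same order. A BDE-47 gain of at least 5 points was found in 0.177%, 0.247% and 12.6%. The median lengths were 89, 141 and 2199 bp. Regions are not replicates, and these differences were not tested.

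The limits cut a continuous range of levels. Just below 2% stood Ltbp4 (1.98%) and Pitx1 (1.99%), with BDE-47 levels at PND65 of 7.52% and 7.82%. Just above it stood Hs3st3b1 and Itgb4 (both 2.01%), with 8.78% and 10.7%. Near the upper limit Zcchc6 (9.90%) and Maea (9.98%) were inside, with BDE-47 levels at PND65 of 11.6% and 5.74%. Arf6 (10.0%) and Gfy (10.1%) were outside, with 13.9% and 4.02%. At PND65 Maea and Gfy had BDE-47 levels below their controls, and the others above. At PND120 the BDE-47 level was below the control level in all of these regions.

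Of the 771 host genes, 274 held another listed region, and 190 also held a gene-body region under 2%. Over these 190 genes the median control difference was 9.23 points in the regions of 2 to 10% and 9.24 in those under 2%, and it was larger in the former in 94 genes. The median BDE-47 level at PND65 was 10.4% against 6.06%, and it was higher in the region of 2 to 10% in 161 genes. Within these genes the control difference was alike in both classes, and the BDE-47 level was mostly higher where the control level was higher.

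Regions with more CpGs covered a narrower range. With 3 CpGs the control difference ran from 5.12 to 20.9 points (interquartile range 4.31), and with at least 10 CpGs from 5.27 to 13.8 (interquartile range 2.44). The BDE-47 difference ran from -5.59 to 6.21 points with 3 CpGs and from -2.88 to 2.23 with at least 10. A range widens with the number of regions, which was 300 with 3 CpGs and 50 with at least 10. Both BDE-47 levels lay between the control levels in 257 of 300 regions with 3 CpGs and in 324 of 367 with 4 to 6. They did so in 92 of 94 with 7 to 9, and in 47 of 50 with at least 10. BDE-47 levels were also higher where the PND65 control level was higher. Their medians were 8.92% and 8.31% in the 279 regions of 2 to 4%, and 14.3% and 13.6% in the 95 regions of 8 to 10%. The median control difference varied only from 8.93 to 9.29 points over bins of this level.

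The regions with the most CpGs included those of several developmental transcription factors. In Sp6, a zinc-finger factor of tooth development, 26 CpGs (rn6 chr10:84956033-84962885) had 4.70% and 13.6% in controls and 11.6% and 11.5% in BDE-47 animals. In Emx2, a homeobox factor of forebrain and urogenital development, 24 CpGs (rn6 chr1:280636472-280643729) had 6.01% and 16.4% in controls and 14.3% and 13.9% in BDE-47 animals. In Dlx1, a homeobox factor of forebrain interneurons, 19 CpGs (rn6 chr3:58165751-58170545) had 3.21% and 12.6% in controls and 10.2% and 9.25% in BDE-47 animals. Control levels in these factors differed by 8.89 to 10.4 points, and BDE-47 levels by less than 1 point.

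Rtn2, a reticulon of the endoplasmic reticulum whose promoter is printed above, had 24 CpGs (rn6 chr1:80195508-80203755) with 6.58% and 15.5% in controls and 13.6% and 11.2% in BDE-47 animals. Cyp26c1, a retinoic acid hydroxylase with the CpG-poor promoter above, had 19 CpGs (rn6 chr1:256372886-256381018) with 3.06% and 11.6% in controls and 9.54% and 7.75% in BDE-47 animals. Tfap2e, an AP-2 transcription factor taken ahead of Matk with as many CpGs by chromosome order, had 17 CpGs (rn6 chr5:144757917-144760385) with 5.30% and 13.8% in controls and 11.2% and 10.3% in BDE-47 animals. All 6 regions showed the most common order of groups.

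**Figure D3:**
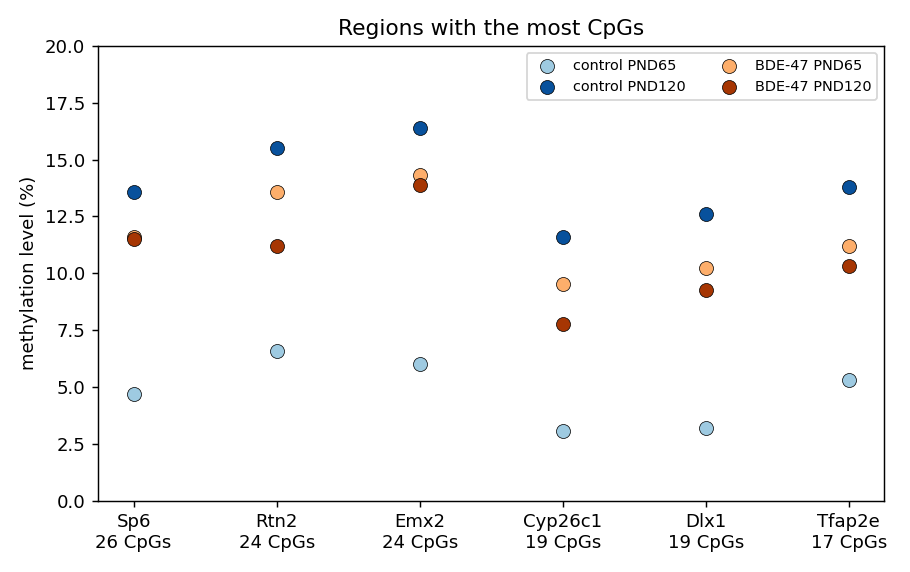
Methylation level (vertical axis, %) in the 4 groups for the 6 regions with the most CpGs, with 1 point per group. In each region control PND65 is lowest (3.06% to 6.58%), control PND120 is highest (11.6% to 16.4%), and both BDE-47 points lie between them.

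The largest control differences were found in regions of 3 or 4 CpGs. At Ovol2, a zinc-finger regulator of epithelial differentiation, 3 CpGs (rn6 chr3:138462423-138462527) had 7.05% and 28.0% in controls, a difference of 20.9 points, and 18.2% and 17.5% in BDE-47 animals. At Cox5a, a subunit of cytochrome c oxidase, 3 CpGs (rn6 chr8:62298567-62298695) had 2.85% and 23.4% in controls, a difference of 20.5 points, and 14.1% and 11.0% in BDE-47 animals. At Reep1, which shapes the endoplasmic reticulum, 3 CpGs (rn6 chr4:99619038-99619539) had 7.16% and 26.0% in controls and 17.5% and 18.5% in BDE-47 animals. In these regions both BDE-47 levels lay between control levels that were at least 18.8 points apart.

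Noct, the circadian phosphatase nocturnin, had 2.48% and 20.7% in controls and 15.3% and 12.6% in BDE-47 animals. Slitrk5, a synaptic adhesion protein, had 3.03% and 21.1% in controls and 16.1% and 13.8% in BDE-47 animals. Zfp473, a zinc-finger protein, had 5.18% and 22.6% in controls and 16.8% and 15.1% in BDE-47 animals. Over these 6 regions the BDE-47 minus control difference ran from 10.4 to 13.1 points at PND65 and from -12.3 to -7.34 points at PND120.

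**Figure D4:**
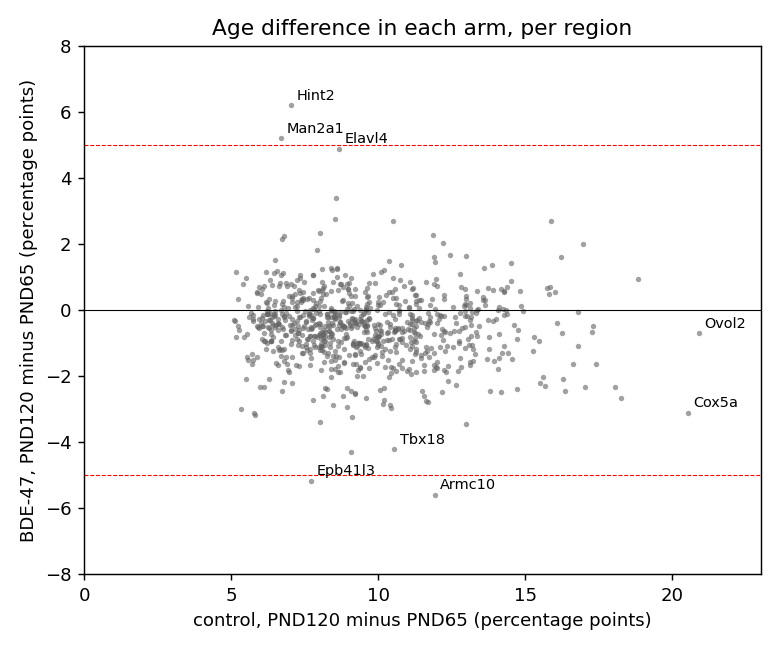
Age difference (PND120 minus PND65, percentage points) in BDE-47 animals (vertical axis) against controls (horizontal axis), with 1 point per region. Control differences run from 5.11 to 20.9 points, while BDE-47 differences reach 5 points in size only at Hint2, Man2a1, Armc10 and Epb41l3.

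Only 4 regions reached an age difference of 5 points in BDE-47 animals, each with 3 CpGs. At Hint2, a mitochondrial histidine triad enzyme (rn6 chr5:59152452-59152468), BDE-47 levels were 35.3% and 41.5% and control levels 5.76% and 12.8%. At Man2a1, a Golgi mannosidase (rn6 chr9:112293346-112293389), BDE-47 levels were 20.6% and 25.8% and control levels 8.21% and 14.9%. Both arms were higher at PND120 in these regions, by 6.21 and 5.21 points in BDE-47 animals. At Armc10, a mitochondrial protein (rn6 chr4:10012422-10019734), BDE-47 levels were 17.6% and 12.0% and control levels 7.25% and 19.2%. At Epb41l3, a membrane skeleton protein (rn6 chr9:117538671-117538813), BDE-47 levels were 22.3% and 17.1% and control levels 9.88% and 17.6%. In the last 2 the arms differed in direction. Another region of Epb41l3, 206 bp away, had 12.6% and 13.7% in BDE-47 animals and 4.87% and 17.7% in controls, so both arms were higher at PND120 there.

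The next largest BDE-47 differences stayed under 5 points. Elavl4, a neuronal RNA-binding protein, had 8.65% and 13.5% in BDE-47 animals and 7.93% and 16.6% in controls. Cryba2, a lens crystallin, had 12.9% and 16.3% in BDE-47 animals and 3.23% and 11.8% in controls. Cacfd1 had 9.74% and 12.5% in BDE-47 animals and 5.97% and 14.5% in controls. In the other direction Lonrf3 on chromosome X had 19.6% and 15.3% in BDE-47 animals and 4.48% and 13.6% in controls. Tnfrsf12a, the receptor of the cytokine TWEAK, had 17.0% and 13.6% in BDE-47 animals and 6.34% and 19.3% in controls. Tbx18, a T-box factor of heart and ureter development, differed from these in its 9 CpGs and had 12.5% and 8.30% in BDE-47 animals and 4.58% and 15.1% in controls.

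A few regions were far more methylated in BDE-47 sperm than in either control group. At Ube2g1, a ubiquitin-conjugating enzyme (rn6 chr10:59173441-59173458), BDE-47 levels were 46.5% and 46.5% and control levels 6.36% and 15.5%. At Pcdh8, a protocadherin (rn6 chr15:62199143-62199234), BDE-47 levels were 31.5% and 33.6% and control levels 3.78% and 10.5%. At Eya4, a transcriptional coactivator and phosphatase (rn6 chr1:23238249-23238315), BDE-47 levels were 34.2% and 33.8% and control levels 6.95% and 14.5%. Together with Hint2 these regions were at least 27.2 points above controls at PND65 and 19.4 at PND120, and each held 3 CpGs. Chst11, a chondroitin sulfotransferase, and Gpr50, a melatonin receptor relative, were noted after their values were seen. Chst11 had 25.7% and 27.8% in BDE-47 animals and 3.96% and 16.2% in controls. Gpr50 had 29.9% and 31.1% in BDE-47 animals and 8.16% and 18.3% in controls.

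Nearby listed regions of the same genes did not share this height. In Pcdh8 a region 850 bp away had 6.87% and 6.84% in BDE-47 animals and 0.723% and 9.04% in controls. In Chst11 a region 150 bp away had 4.01% and 3.73% in BDE-47 animals and 0.176% and 6.41% in controls. In Man2a1 a region 18 bp away had 2.41% and 1.21% in BDE-47 animals and 0.823% and 7.50% in controls. Whether the sequence between these listed regions had high or low levels is not known.

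BDE-47 levels below both control levels were found in 16 regions. At LOC102556092, 4 CpGs (rn6 chr12:37210560-37210627) had 3.12% and 2.21% in BDE-47 animals and 8.80% and 19.1% in controls. A second of the 811 regions in that gene had 8.58% and 7.79% in BDE-47 animals and 2.76% and 10.6% in controls, so it held the common order. At LOC102547192 both BDE-47 levels were listed at 0, with 3.25% and 16.6% in controls. At Pwwp2a, a reader of histone variant H2A.Z, BDE-47 levels were 8.96% and 8.92% and control levels 9.77% and 26.6%.

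Maea, of a ubiquitin ligase complex, had 5.74% and 6.25% in BDE-47 animals and 9.98% and 15.9% in controls. Med25, a Mediator subunit, had 5.09% and 5.50% in BDE-47 animals and 9.25% and 16.3% in controls. Cul1, the scaffold of SCF ubiquitin ligases, had 3.84% and 3.46% in BDE-47 animals and 7.49% and 15.5% in controls. Skil, a repressor of TGF-beta signalling, was not below both controls but had 5.84% and 4.89% in BDE-47 animals and 2.95% and 18.4% in controls, a wide gap at PND120. Exactly 3 CpGs were held by 28 of the 48 regions above both controls (58.3%), 7 of the 16 below (43.8%) and 257 of the 720 between (35.7%).

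By gene symbol, 279 of the 811 regions fell in at least 1 of 14 lists of genes with a shared role. The lists are patterns of symbols and are not complete: the homeobox gene Drgx, the solute carrier Slc35g2 and the kinases Matk, Slk and Pkn3 are in none, and counts are of listed symbols only. In every list the medians had control PND65 lowest, control PND120 highest and BDE-47 between. The median control difference ran from 8.26 points in ubiquitin genes to 11.2 in 3 regions of sperm genes, against 9.18 over the 811 and 9.30 over all listed regions. The median BDE-47 difference ran from -0.808 points in small GTPase genes to 0.0373 in solute carriers, against -0.477 over the 811 and -0.384 over all listed regions. Of all listed regions matching a list, the share among the 811 ran from 11.0% (insulin, PI3K and mTOR) to 21.2% (zinc-finger). Over all listed regions it was 811 of 5327, and nothing is read from the sizes of the lists. The members named for each list are those with the most CpGs. Both BDE-47 levels lay between the control levels in 88.8% of the 811 regions and 82.1% of all listed regions. The counts of such regions in each list stand beside these shares, and nothing about gene roles is read from them.

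**Figure D5:**
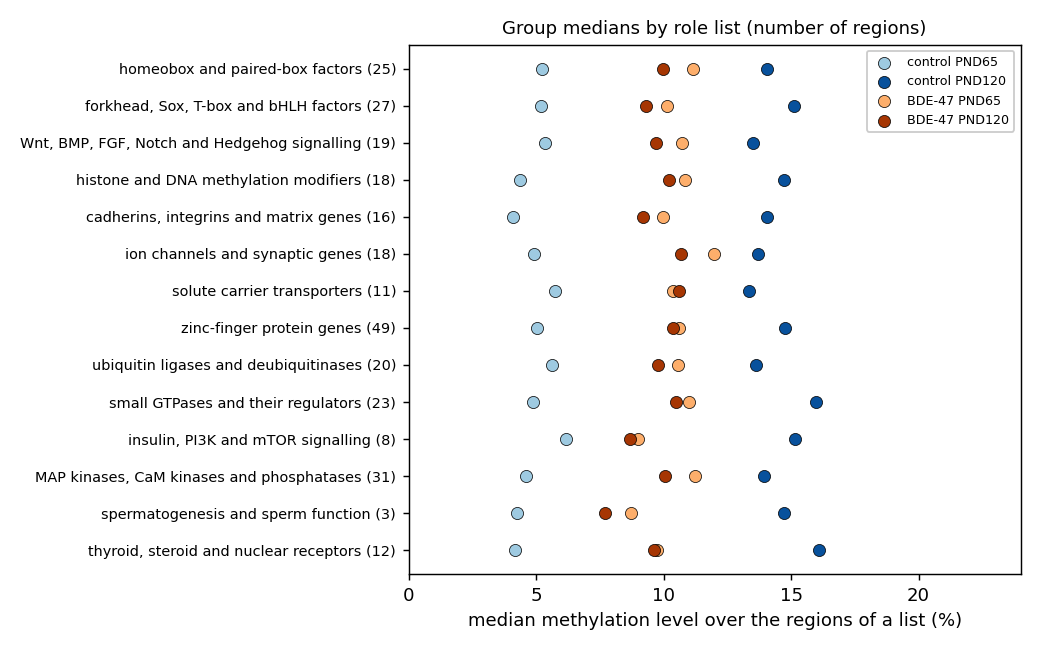
Median methylation level (%) over the regions of each role list in the 4 groups. Control medians run from 4.09% to 6.16% at PND65 and from 13.4% to 16.1% at PND120, with the BDE-47 medians between them in every list.

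The list of homeobox and paired-box factors, which pattern the embryo, had 25 regions. Both BDE-47 levels lay between the control levels in all 25, against 88.8% of the 811 and 82.1% of all listed regions. Besides Emx2 and Dlx1, Tlx1, a factor of spleen development, had 14 CpGs with 8.70% and 15.8% in controls and 11.9% and 11.0% in BDE-47 animals. Forkhead, Sox, T-box and bHLH factors had 27 regions, again all 27 with BDE-47 between the controls. Foxd3, a neural crest factor, had 3.92% and 13.1% in controls and 8.84% and 8.56% in BDE-47 animals. Id2, an inhibitor of bHLH factors, had 4.20% and 12.4% in controls and 11.7% and 9.37% in BDE-47 animals. The BDE-47 ages were closer at Foxd3 than at Id2, where PND65 came near the PND120 control level.

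Genes of Wnt, BMP, FGF, Notch and Hedgehog signalling had 19 regions, 17 of them with BDE-47 between the controls. The ligand Wnt7b held 2 of them, 58 bp apart. Its region of 11 CpGs (rn6 chr7:126461949-126464796) had 2.79% and 13.2% in controls and 11.7% and 8.83% in BDE-47 animals. Its region of 9 CpGs had 4.08% and 10.4% in controls and 10.3% and 9.53% in BDE-47 animals. Both had BDE-47 between the controls, unlike a further listed region of the gene, which had 41.6% and 42.5% in BDE-47 animals and 24.2% and 30.2% in controls. The corepressor Tle3 had 10 CpGs with 7.73% and 13.5% in controls and 11.8% and 11.5% in BDE-47 animals.

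Histone and DNA methylation modifiers had 18 regions, 17 of them with BDE-47 between the controls. A control difference of at least 10 points was found in 13 of the 18, against 38.6% of the 811 regions and 41.0% of all listed regions, and nothing is read from it because control values chose the regions. Smarcd3, a chromatin remodeller subunit, had 12 CpGs with 2.51% and 11.3% in controls and 6.65% and 5.70% in BDE-47 animals. Cbx7, a Polycomb protein that binds methylated histone H3, had 11 CpGs with 6.97% and 17.7% in controls and 14.9% and 16.3% in BDE-47 animals. Tnrc18 had 10 CpGs with 3.53% and 14.6% in controls and 9.90% and 9.08% in BDE-47 animals. Cbx7 was the only one of these with a higher BDE-47 level at PND120.

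Zinc-finger protein genes had 49 regions, 42 with BDE-47 between the controls. Gata4, a factor of heart and gonad development, had 16 CpGs (rn6 chr15:46428515-46432728) with 3.20% and 9.32% in controls and 10.1% and 9.13% in BDE-47 animals. Its BDE-47 level at PND65 was above both control levels, unlike that of Sp6. Zcchc3, a nucleic acid binding protein, had 5.68% and 13.8% in controls and 10.6% and 9.93% in BDE-47 animals.

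Cadherin, integrin and matrix genes had 16 regions, 14 with BDE-47 between the controls. Sema4c, a semaphorin, had 11 CpGs with 3.05% and 14.2% in controls and 9.47% and 9.16% in BDE-47 animals. Itga3, a laminin-binding integrin subunit, had 4.43% and 13.3% in controls and 9.43% and 8.70% in BDE-47 animals. The matrix protein Ltbp1, which binds latent TGF-beta, had the smallest control difference of its list, with 2.50% and 8.89% in controls and 5.98% and 5.78% in BDE-47 animals.

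Ion channel and synaptic genes had 18 regions, 14 with BDE-47 between the controls. Chrm3, a muscarinic acetylcholine receptor, had 10 CpGs with 5.41% and 11.8% in controls and 11.7% and 10.9% in BDE-47 animals. Trpm7, a channel with a kinase domain, had 8.37% and 16.1% in controls and 12.4% and 12.2% in BDE-47 animals. Cacna1b, the pore of N-type calcium channels, had 2.73% and 12.0% in controls and 5.45% and 5.07% in BDE-47 animals. The BDE-47 levels were nearer to PND120 controls in Chrm3 and nearer to PND65 controls in Cacna1b.

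The list of solute carriers had 11 regions, 9 with BDE-47 between the controls. A higher BDE-47 level at PND120 was found in 6 of the 11, against 27.6% of the 811 regions and 32.8% of all listed ones. Slc25a3, the mitochondrial phosphate carrier, had 3.56% and 11.7% in controls and 9.10% and 9.23% in BDE-47 animals. Slc31a2, of copper transport, had 3.14% and 12.7% in controls and 7.48% and 7.53% in BDE-47 animals. A region of Slc16a14 with 6 CpGs was above both controls, with 3.58% and 9.07% in controls and 9.44% and 10.4% in BDE-47 animals.

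Ubiquitin ligases and deubiquitinases had 20 regions, 16 with BDE-47 between the controls. Rnf207, a RING-finger protein of heart muscle, had 15 CpGs (rn6 chr5:169497718-169499542), the most of the 48 regions above both controls. It had 6.40% and 13.2% in controls and 18.3% and 20.5% in BDE-47 animals. Trim39 had 7.11% and 14.2% in controls and 9.46% and 9.18% in BDE-47 animals, and Ube2k, a ubiquitin-conjugating enzyme, had 4.72% and 13.4% in controls and 7.67% and 5.98% in BDE-47 animals.

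Small GTPases and their regulators had 23 regions, 22 with BDE-47 between the controls. Arhgap27, a GTPase activator, had 15 CpGs with 5.48% and 12.8% in controls and 11.9% and 11.2% in BDE-47 animals. Rasl10a, a Ras-like GTPase, had 15 CpGs with 2.12% and 11.5% in controls and 8.55% and 7.57% in BDE-47 animals. Rab11fip5, an effector of Rab11, had 4.94% and 12.8% in controls and 10.3% and 10.5% in BDE-47 animals. In all 3 the BDE-47 ages were less than 1 point apart.

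The list of MAP kinases, CaM kinases, other kinase families and phosphatases had 31 regions, 28 with BDE-47 between the controls. Cdk14, a cyclin-dependent kinase, had 3.13% and 12.1% in controls and 8.07% and 8.21% in BDE-47 animals. Dusp5, a phosphatase of ERK, had 6.68% and 14.9% in controls and 13.2% and 12.5% in BDE-47 animals. Ppp2r3b, a regulatory subunit of protein phosphatase 2A, had 4.74% and 14.1% in controls and 7.92% and 7.64% in BDE-47 animals. The BDE-47 levels of Dusp5 lay nearer to PND120 controls than those of the other 2.

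Insulin, PI3K and mTOR signalling had 8 regions, 7 with BDE-47 between the controls. Phlpp2, a phosphatase that acts on AKT, had 10 CpGs with 2.45% and 9.13% in controls and 8.36% and 7.43% in BDE-47 animals. Sesn2, a leucine sensor upstream of mTORC1, had in its region of 7 CpGs 6.48% and 16.2% in controls and 11.6% and 11.7% in BDE-47 animals. Mlst8, a subunit of both mTOR complexes, had 5.83% and 12.0% in controls and 9.62% and 9.51% in BDE-47 animals.

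Genes of spermatogenesis and sperm function held 3 regions (13.0% of the listed regions matching that list), all with BDE-47 between the controls. Tssk6, a testis-specific kinase, had 5 CpGs (rn6 chr16:21273198-21273617) with 4.25% and 16.1% in controls and 11.0% and 10.3% in BDE-47 animals. Ropn1l, a protein of the sperm flagellum, had 2.75% and 13.9% in controls and 8.70% and 7.15% in BDE-47 animals. Ccdc189 had 6.00% and 14.7% in controls and 7.75% and 7.69% in BDE-47 animals.

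Nuclear receptors and hormone-related genes had 12 regions, 10 with BDE-47 between the controls. Dmrt3, a DM-domain transcription factor, had 10 CpGs with 4.43% and 15.9% in controls and 11.3% and 9.79% in BDE-47 animals. Rora, a receptor of the circadian clock, had 2.51% and 11.2% in controls and 7.06% and 7.84% in BDE-47 animals. Nr3c2, the mineralocorticoid receptor, had 2 regions 39 bp apart. That of 10 CpGs had 3.80% and 11.9% in controls and 8.40% and 7.12% in BDE-47 animals. That of 6 CpGs had 8.71% and 18.2% in controls and 14.0% and 13.7% in BDE-47 animals, so all 4 levels were higher in it.

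Of the host genes, 38 carried 2 of the regions and 1, the GTP-binding protein gene Gtpbp1, carried 3. Its longest region (rn6 chr7:120920249-120923291) had 5.09% and 18.3% in controls and 11.3% and 9.75% in BDE-47 animals. The second (rn6 chr7:120923482-120923555) had 4.38% and 14.9% in controls and 8.34% and 7.71% in BDE-47 animals. The third, 25 bp further on, had 8.90% and 16.3% in controls and 13.3% and 13.7% in BDE-47 animals. BDE-47 lay between the controls in each, while the starting level varied over short distances.

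In Drgx, a homeobox factor of sensory neurons, 2 regions of 11 CpGs lay 641 bp apart. The first (rn6 chr16:8822319-8823936) had 2.09% and 15.9% in controls and 11.5% and 10.3% in BDE-47 animals, and the second had 2.19% and 12.2% and 8.92% and 7.31%. In C1qtnf4, a secreted C1q-related protein, the region of 10 CpGs had 4.89% and 14.8% in controls and 7.53% and 6.60% in BDE-47 animals, and that of 6 CpGs had 3.19% and 9.92% and 8.31% and 7.09%. In Marcks, a substrate of protein kinase C, the regions had 2.40% and 11.7% and 3.26% and 11.6% in controls, and 8.26% and 8.38% and 4.85% and 4.87% in BDE-47 animals. The Marcks regions were alike in controls and differed in BDE-47 animals.

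None of the 811 regions overlapped any of the 30 regions that the authors listed for exposure. How many of all listed regions overlap those 30 was not computed, so nothing is read from this. Tbx5, a T-box factor of heart and limb, was the 1 host gene also named in the exposure list. The authors' deposited table gives a change of -7.46 points at PND65 for a region of 4 CpGs at a listed distance of -51170 bp from Tbx5, and does not state the direction of the difference. The gene-body region of Tbx5 (rn6 chr12:42059864-42060793) had 4.16% and 13.0% in controls and 10.6% and 7.96% in BDE-47 animals.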

How the data were processed

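Sperm DNA methylation was measured by reduced representation bisulfite sequencing in 24 rats, 4 groups of 6. Per the series' design text, the authors aligned reads to rn6 with Bismark 0.16.1 and Bowtie2 2.2.9, removed duplicates with nudup 2.2, kept CpGs with at least 10 reads, called regions with MethPipe and assigned genes with closest-features 2.4.25. The list was limited to q-values under 0.05 and at least 3 CpGs, per the file headers. The deposited levels are fractions, 1 per group and region, and were multiplied by 100 to give percent. Age differences were recomputed from them and matched the deposited differences within 1.42e-14 points. How the authors combined animals into a group value is not given in the sources used here, and 0 columns held single animals.

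Regions, counts, medians and ranges were computed with Python 3.11.15, pandas 2.3.3 and numpy 2.4.6, and the summaries were tested on simulated data. No test was made. Members and gene lists were chosen with earlier results of these data known, and 2 patterns of the lists were trimmed after symbols were seen. Named regions were the 6 with the largest control gain (and loss, of which there was none), the 5 with the largest BDE-47 gain and loss, the 4 highest and 4 lowest for BDE-47 minus control at each age, the 6 with the most CpGs, up to 6 genes with several regions, the 3 with the most CpGs in each list, and the 2 on each side of each limit. Any other is said to be chosen after its values were seen, apart from neighbours of named regions. Alternatives changed the CpG minimum, length limit, level window, size of the control difference, regions per gene and summary.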

Additional observations from a re-analysis of the deposited data

How the results depend on the processing

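Of 67 alternative values of 9 results under 8 alternatives, 44 stayed within the 95% interval of the reported value over regions (binomial for shares). The interval was left by 23, and 0 changed direction. A share cannot be negative, and all regions gained in controls under every alternative. No change of direction was therefore possible for the shares or the median control difference. The 95% interval treats regions as independent although they share animals and libraries, and the alternatives reuse the same regions in whole or in part. Staying or moving therefore only describes the size of a shift, and nothing about animals or robustness is read from it. With at least 5 CpGs (353 regions), the median control difference was 8.54 points, BDE-47 minus control was 5.21 points at PND65 and -3.91 at PND120, the shares with a BDE-47 gain or loss of 5 points were 0 and 0, and BDE-47 lay between the controls in 94.9% at PND65 and 95.2% at PND120. With at least 10 CpGs (50 regions), these were 8.64, 6.27, -3.71, 0, 0, 96% and 96%, and the median BDE-47 difference was -0.886 points. With a control difference of at least 10 points (313 regions), a stricter choice on that same difference, the medians were 11.9 points in controls, -0.583 in BDE-47 animals, 7.13 for BDE-47 minus control at PND65 and -5.83 at PND120. The share with a BDE-47 gain of 5 points was then 0, and BDE-47 lay between the controls in 94.2% at PND65 and 93.6% at PND120. A CpG-weighted mean gave a BDE-47 difference of -0.551 points. The cause of these moves was not tested. A limit of 1000 bp, no length limit, a window of 3 to 9% and 1 region per gene kept the 9 results within that interval. The interval is wide for shares that rest on 2 regions: the share with a BDE-47 loss of 5 points went from 0.247% to 0.130% with 1 region per gene, 0.141% up to 1000 bp and 0.156% from 3 to 9%, and the share with a gain to 0.130% with 1 region per gene. No paired analysis was possible because the files hold 1 value per group, and no replicate could be left out. Depth per region is not given, so regions of 3 CpGs, where the widest values stood, cannot be weighed by reads.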

Other observations

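Further host genes were picked after their values were seen and are given as values. Genes of retinoic acid metabolism and response were among them. Cyp26a1, a retinoic acid hydroxylase whose region starts 1996 bp after that of Cyp26c1 ends, had 6.10% and 15.5% in controls and 10.5% and 10.6% in BDE-47 animals. Rdh10, a retinol dehydrogenase, had 3.07% and 9.98% in controls and 5.40% and 6.14% in BDE-47 animals. The retinoic acid receptor Rara had 3.92% and 16.8% in controls but 3.44% and 3.57% in BDE-47 animals, below both control levels.

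In 5 other genes control PND65 was lowest and control PND120 highest. Bdnf, a neurotrophin, had 3.41% and 12.3% in controls and 9.42% and 8.61% in BDE-47 animals. Gdnf, the ligand that maintains spermatogonial stem cells in mice, had 11 CpGs with 2.29% and 12.2% in controls and 8.53% and 7.18% in BDE-47 animals. Rpl28, a ribosomal protein, had 3.37% and 14.6% in controls and 11.3% and 11.8% in BDE-47 animals. Ogg1, a glycosylase that removes oxidised guanine from DNA, had 2.05% and 13.0% in controls and 12.6% and 12.9% in BDE-47 animals. Both of its BDE-47 levels were close to the PND120 control level, as in some other regions. H2afz, which encodes histone variant H2A.Z, had 2.41% and 15.4% in controls and 10.3% and 10.1% in BDE-47 animals.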
